A study of Rattus norvegicus with 24 samples.

Results

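The genes described here are 40 interferon-stimulated genes and sensors of viral RNA, taken by gene symbol from a table of expression values in rat tissues. Of the 40 symbols, 39 had a gene with values, among 20506 genes with values in all, and Xaf1 was not analysed here. RNA sequencing compared the spontaneously hypertensive rat (SHR), an inbred strain with inherited high blood pressure, with the Wistar-Kyoto rat (WKY), the related strain used as its control. At an age of 24 weeks, the heart's left ventricle, the adrenal gland and a sympathetic ganglion that serves the head and neck, the superior cervical ganglion, were each sampled in 4 libraries of SHR and 4 of WKY, which gave 6 groups and 24 libraries. The labels name no treatment and do not say that each library came from a separate rat, so the p-values below measure the spread between libraries, which may be technical. Levels are in FPKM, a fragment count scaled for the length of the transcript and the depth of the library, and values of single libraries are listed in the order of replicate 1 to 4.

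Type I interferons bind a receptor on nearly all cells and act through the kinases JAK1 and TYK2, which activate STAT2. With IRF9, STAT2 is part of the factor ISGF3, which binds the interferon-stimulated response element (ISRE) in the promoters of its target genes. The RNA helicases RIG-I (gene Ddx58) and MDA5 (Ifih1) detect viral or misplaced cellular RNA and switch interferon genes on, and both helicases are interferon-stimulated themselves. Many cells keep a low level of the whole set running without infection.

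The tissues carried their labelled identity. Summed over 6 genes, cardiomyocyte markers reached 29915 to 32693 FPKM in the ventricle and 3.42 to 17.4 elsewhere. Adrenal cortex markers reached 24580 to 27706 FPKM in the adrenal gland and 5.93 to 24.0 elsewhere, and sympathetic neuron markers 5894 to 6326 FPKM in the ganglion and 37.3 to 522 elsewhere. Between 12104 and 12999 genes per library had an FPKM of at least 1. The number of reads behind the values is unknown. One library has to be named before any comparison. SHR replicate 2 was the highest of the 4 SHR libraries in 36 of the 39 interferon-stimulated genes in the ventricle and in 35 in the adrenal gland, but in 2 in the ganglion. Counts for the ventricle and the adrenal gland are therefore given with and without it, as are the differences of several genes. The library was singled out by its high values in these same genes, and leaving it out lowers the SHR mean and spread. Counts and p-values without it are thus descriptions and no support for a strain difference.

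Promoter sequence was at hand for 28 of the 39 genes, as the 250 bases before and 50 after the start of each gene in RefSeq, assembly GRCr8. This is the sequence of the reference strain, not of SHR or WKY, and the deposited values rest on another build, Rnor_6.0. The core of the response element, searched on either strand as GAAA, any 2 bases and GAAA again, was found in 17 of the 28 promoters (60.7%) and in 3.77% of 27457 promoters. Matches to the response element were found in 11 of the 21 promoters of genes that were lower in the SHR ventricle and in 6 of the other 7. A match is a run of letters, not a shown binding site. The 7 stretches of 60 bases below are shown because their genes carry the motif and cover the outcomes in the ventricle. Oas1a, Ifi44l and Rsad2 were lower in SHR, Irf7, Ifit3 and Ifih1 passed the test only without SHR replicate 2, and Bst2 passed in neither setting. Capitals mark the response element core, overlapping matches included, and each stretch is written 5′ to 3′ along its gene.
Irf7 (chr1:205800058-205800117, minus strand): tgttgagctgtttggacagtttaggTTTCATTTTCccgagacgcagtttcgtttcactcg
Oas1a (chr12:41330403-41330462, plus strand): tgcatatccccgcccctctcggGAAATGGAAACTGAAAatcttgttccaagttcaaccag
Ifit3 (chr1:241527257-241527316, plus strand): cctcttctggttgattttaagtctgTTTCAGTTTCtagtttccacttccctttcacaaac
Ifi44l (chr2:243328623-243328682, plus strand): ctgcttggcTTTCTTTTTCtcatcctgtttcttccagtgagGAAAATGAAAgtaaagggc
Rsad2 (chr6:48788233-48788292, minus strand): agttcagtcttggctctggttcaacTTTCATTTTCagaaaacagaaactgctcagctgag
Ifih1 (chr3:67683993-67684052, minus strand): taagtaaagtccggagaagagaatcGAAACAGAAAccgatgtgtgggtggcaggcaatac
Bst2 (chr16:18255061-18255120, minus strand): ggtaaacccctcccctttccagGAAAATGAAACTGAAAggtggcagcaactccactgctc

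Most of the interferon-stimulated genes were lower in the SHR ventricle, fewer were lower in the adrenal gland, and few genes differed in the ganglion. A difference is the SHR mean less the WKY mean of log2(FPKM + 1), a scale on which low genes appear to change less than they do, and a gene was called when its Benjamini-Hochberg adjusted p from limma was under 0.05. A gene was tested in a tissue if its FPKM reached 1 in at least 4 of 8 libraries. The ventricle had 30 of 37 tested genes lower and 1 higher, where 12% of all tested genes were lower and 9.2% higher. The median difference was -0.98, and -0.03 over all genes. The strains did not overlap in 27 genes that were lower and 1 that was higher, as in 14.2% and 10.6% of all genes. The adrenal gland had 19 of 37 lower and 2 higher, where 24.7% of all genes were lower and 16.5% higher, and the median was -0.77 against -0.04. Markers of leukocytes, endothelium and other cells were also lower in the SHR adrenal gland, with 12 of 15 leukocyte markers lower, and their part in the adrenal counts was not tested. Without overlap were 13 lower and 2 higher genes of all 39, against 23.2% and 16.3% of all tested genes. The 13 include Zbp1 and Oas3, which were too low to be tested. The ganglion had 3 of 35 lower and 3 higher, against 4.43% and 6.37% of all genes, with a median of -0.07 against 0.01, and 4 lower and 4 higher genes without overlap, against 7.09% and 10.2%. At an unadjusted p under 0.05 the ganglion had 8 lower and 5 higher, and the share of all genes at that threshold was not computed. In bulk tissue, fewer cells of a type and less RNA per cell cannot be told apart.

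**Figure D1:**
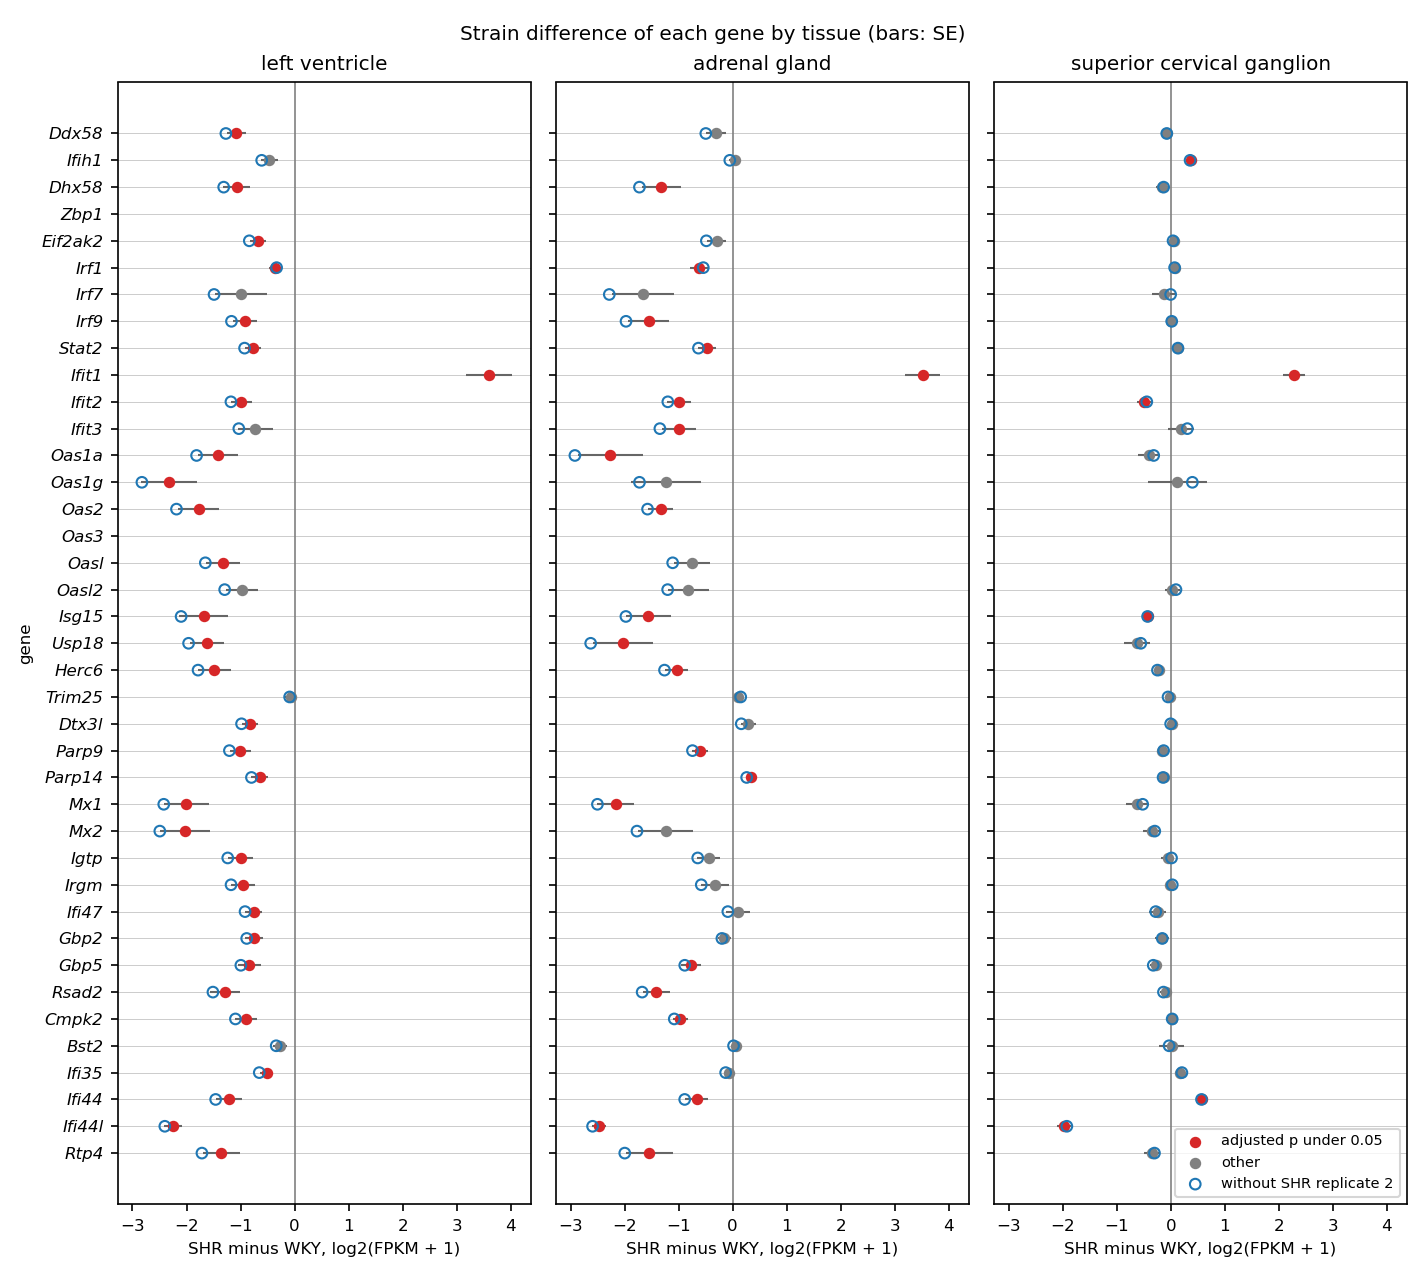
Strain differences of the 39 interferon-stimulated genes in each tissue, as log2(FPKM + 1) in SHR minus WKY; bars are the standard error from limma, red points passed the test, grey points did not, and open circles leave out SHR replicate 2. Most ventricular differences lie below 0, Ifi44l lies below 0 and Ifit1 above 0 in all 3 tissues, and 6 genes passed the test in the ganglion.

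These counts moved with single libraries. Without SHR replicate 2 the ventricle had 33 lower genes and none higher, with 11.7% and 8.26% of all genes. The adrenal gland then had 27 lower and 1 higher, with 22% and 14.8%, and the ganglion 2 and 2, with 3.22% and 4.57%. Of the 30 genes lower in the ventricle, 29 had a more negative difference without this library, with a median of -1.25 in place of -1.04. Of the 19 lower in the adrenal gland, 18 did, with a median of -1.58 in place of -1.32. Irf1 was the exception and lost its call in both tissues. Called only without it were Ifih1, Irf7, Ifit3 and Oasl2 in the ventricle and Ddx58, Eif2ak2, Irf7, Oas1g, Oasl, Oasl2, Mx2, Igtp and Irgm in the adrenal gland. The ventricular count fell to 19 without SHR replicate 1 and to 18 without WKY replicate 1 or WKY replicate 3. The adrenal count was 10 without SHR replicate 1 or without WKY replicate 3. The ganglion had 6 lower genes without SHR replicate 3 and 1 without SHR replicate 4 or any 1 WKY library. Part of this comes from the filter: Ifit1 is near 0 in WKY and Ifi44l is under 1 FPKM in the SHR ganglion, so that leaving out 1 library of the strain that has them takes them below 4 libraries. The calls lost in the ventricle in at least 1 of the 8 refits were those of Dhx58, Irf1, Irf9, Oas1a, Oas1g, Oasl, Isg15, Parp14, Mx2, Igtp, Irgm, Gbp5 and Rtp4 (limma adjusted p = 0.0502 to 0.0930 where lost). Those lost in the adrenal gland were the calls of Dhx58, Irf1, Stat2, Ifit3, Oas1a, Isg15, Usp18, Parp14, Ifi44 and Rtp4 (limma adjusted p = 0.0502 to 0.110). These losses came from refits that kept SHR replicate 2, apart from 1 refit in each tissue for Irf1. The authors' deposited table, at a q under 0.05, holds 30 lower and 1 higher of these genes in the ventricle, 15 and 3 in the adrenal gland, and 5 and 3 in the ganglion. These were not all the genes called here. Their adrenal lower genes left out Dhx58, Stat2, Ifit3, Oas1a, Usp18 and Rtp4, and took in Zbp1 and Oas3, which were not tested here. Adrenal Dtx3l was among their higher genes. Their lower genes held Oasl2 but not Oas1g in the ventricle, and also Herc6 and Mx1 in the ganglion.

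**Figure D2:**
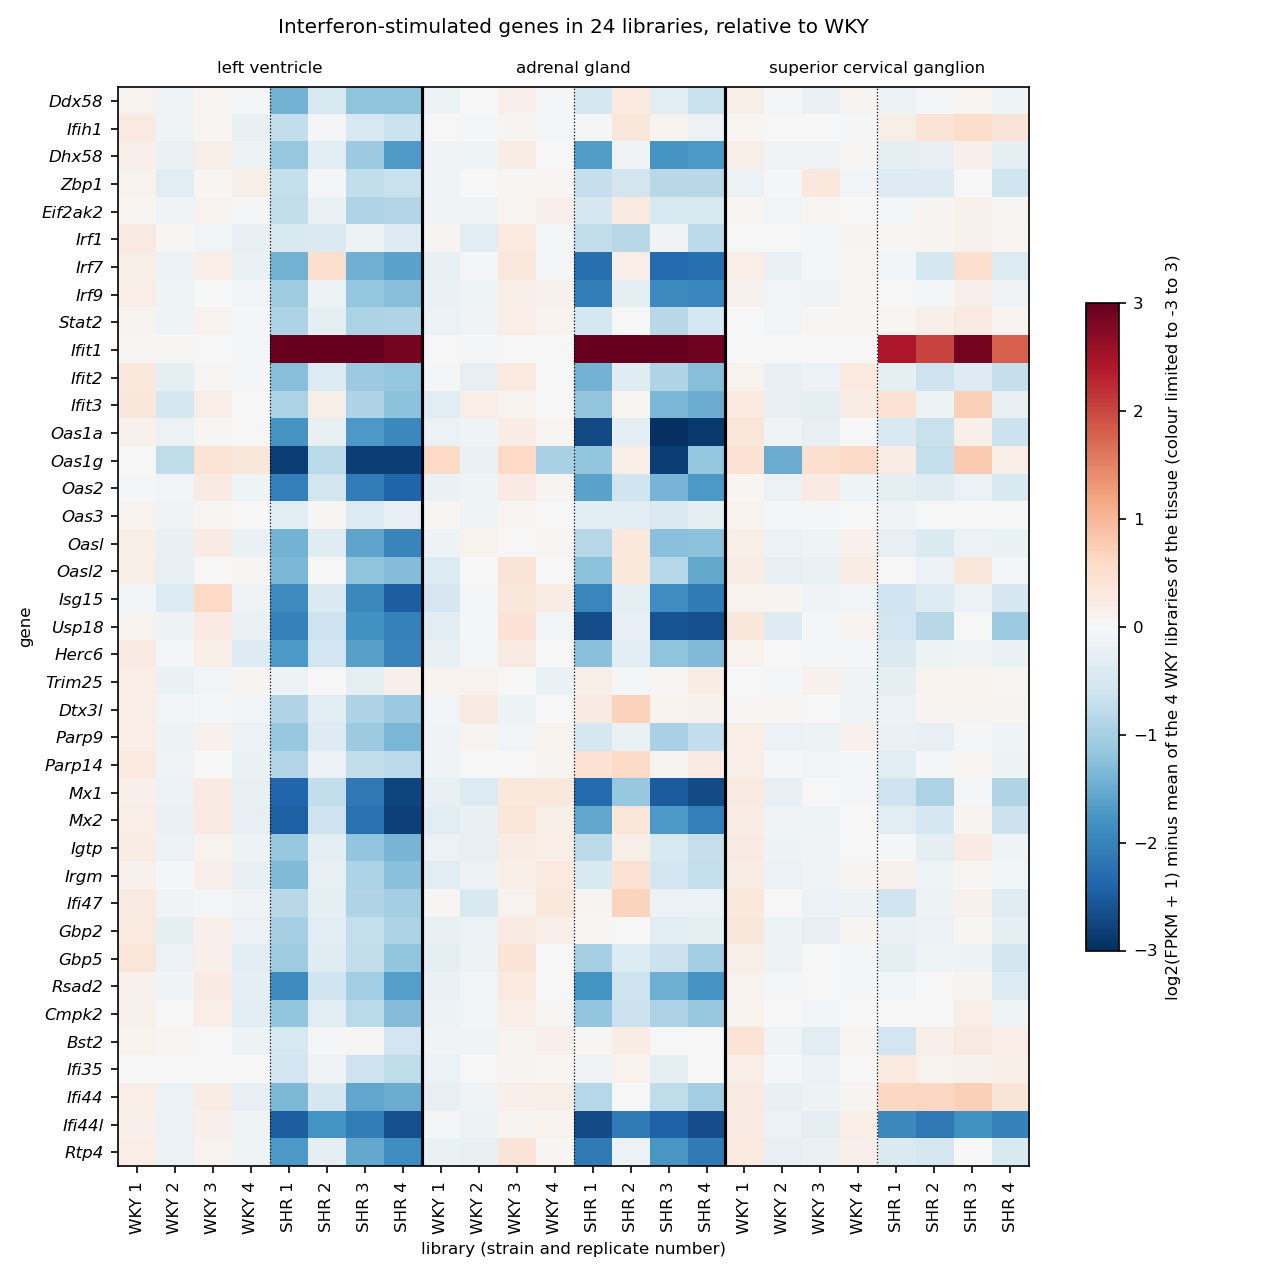
Level of each of the 39 genes in each of the 24 libraries, as log2(FPKM + 1) minus the mean of the 4 WKY libraries of its tissue; columns are libraries and lines are genes. SHR replicate 2 departs from the other 3 SHR libraries in the ventricle and the adrenal gland, and Ifit1 runs against the other genes.

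Among the sensors, Ddx58, which encodes RIG-I, was lower in the ventricle only. It was at 15.6, 13.3, 15.2 and 13.7 FPKM in the WKY ventricle and at 4.80, 10.01, 5.70 and 5.72 in SHR. All SHR libraries lay below WKY, with replicate 2 nearest to it (difference -1.08, SE 0.17, limma adjusted p = 0.00301). The adrenal values were 12.7, 14.2, 15.9 and 13.8 in WKY and 9.64, 17.4, 11.1 and 8.55 in SHR. Here SHR replicate 2 lay above every WKY library and the other 3 below, and the gene was not called (-0.30, limma adjusted p = 0.216). It was called without that library (-0.50, limma adjusted p = 0.0069). Ganglion levels overlapped at 3.78 to 5.18 in WKY and 3.95 to 4.66 in SHR.

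Ifih1, which encodes MDA5, a sensor of long double-stranded RNA, was higher in the SHR ganglion. It was at 4.42, 4.19, 4.28 and 4.0 FPKM in the WKY ganglion and at 4.90, 5.94, 6.48 and 5.78 in SHR, with no overlap (0.37, SE 0.08, limma adjusted p = 0.0121). The ventricular values were 11.1, 8.31, 9.28 and 7.60 in WKY and 5.02, 8.74, 6.25 and 5.42 in SHR. Only SHR replicate 2 reached the WKY range, and the difference of -0.47 was not called (limma adjusted p = 0.0594), whereas it was called without that library (-0.61, limma adjusted p = 0.0079). In the adrenal gland Ifih1 was at 6.32 ± 0.28 FPKM in WKY and 6.62 ± 1.24 in SHR (SD, n = 4).

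Dhx58, which encodes LGP2, a regulator of both helicases, was lower in the ventricle and the adrenal gland. Its adrenal values were 11.1, 10.9, 14.03 and 12.0 FPKM in WKY and 3.03, 11.1, 2.78 and 2.95 in SHR. SHR replicate 2 lay inside the WKY range while the other 3 were far below it (-1.32, SE 0.36, limma adjusted p = 0.019), and without it the difference was -1.73 (SE 0.10). The ventricular difference was -1.07 (SE 0.25), and -1.31 without that library. Eif2ak2, which encodes PKR, a kinase that stops translation on binding double-stranded RNA, fell in the ventricle by 0.68 on the log2 scale (SE 0.14, limma adjusted p = 0.00995), from 25.4 ± 1.60 to 15.8 ± 4.25 FPKM (SD, n = 4). Its adrenal value was 28.6 in SHR replicate 2, 16.3 to 16.8 in the remaining SHR libraries and 21.7 to 26.4 in WKY, and the gene was called only without that library (-0.49, limma adjusted p = 0.0022). Zbp1, a sensor of Z-form nucleic acid, was too low to be tested in any tissue. Its SHR libraries were at 0.07 to 0.29 FPKM in the adrenal gland, below the 0.78 to 0.97 of WKY.

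Of the transcription factor genes, Irf7 varied widely between SHR libraries. IRF7 amplifies interferon production once it is induced. Its FPKM in the ventricle was 80.2, 63.2, 82.3 and 62.1 in WKY and 25.9, 102, 25.8 and 22.7 in SHR. The adrenal values were 49.1, 56.0, 72.5 and 55.6 in WKY and 11.2, 66.7, 10.7 and 11.3 in SHR. In both tissues 3 SHR libraries lay far below WKY, while replicate 2 lay above all of WKY in the ventricle and inside its range in the adrenal gland. Neither difference was called (-0.99, limma adjusted p = 0.194, and -1.66, limma adjusted p = 0.0503). Without SHR replicate 2 they were -1.49 and -2.28 (limma adjusted p = 4.0e-05 and 6.8e-06). Ganglion values were 9.0, 6.65, 7.34 and 8.14 in WKY and 7.19, 5.08, 11.3 and 5.59 in SHR, where replicate 3 was the highest and replicate 2 the lowest.

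The ISGF3 subunit genes Stat2 and Irf9 were lower in both the ventricle and the adrenal gland. Irf9 was at 29.9, 31.5, 39.3 and 38.0 FPKM in the WKY adrenal gland and at 7.47, 27.9, 8.48 and 8.13 in SHR, with no overlap (-1.55, SE 0.38, limma adjusted p = 0.0143), and at -1.97 (SE 0.11) without replicate 2. In the ventricle Irf9 differed by -0.92 (SE 0.23) and Stat2 by -0.77 (SE 0.14, limma adjusted p = 0.00469). Adrenal Stat2 was at 36.4 ± 4.53 FPKM in WKY and 26.3 ± 6.88 in SHR (SD, n = 4; -0.48, limma adjusted p = 0.0436), and its call was lost in 7 of the 8 refits. In the ganglion Stat2 was at 28.5 to 31.3 in WKY and 31.4 to 36.6 in SHR, without overlap but not called (0.14, limma adjusted p = 0.147). Irf1, a factor induced mainly by interferon gamma, was lower in the ventricle (-0.36, limma adjusted p = 0.0377) and in the adrenal gland (-0.62, limma adjusted p = 0.0241). It did not follow the other genes among SHR libraries: in the adrenal gland replicate 3 was at 27.6 FPKM, replicate 2 at 16.4, and the others at 17.7 and 16.9.

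**Figure D3:**
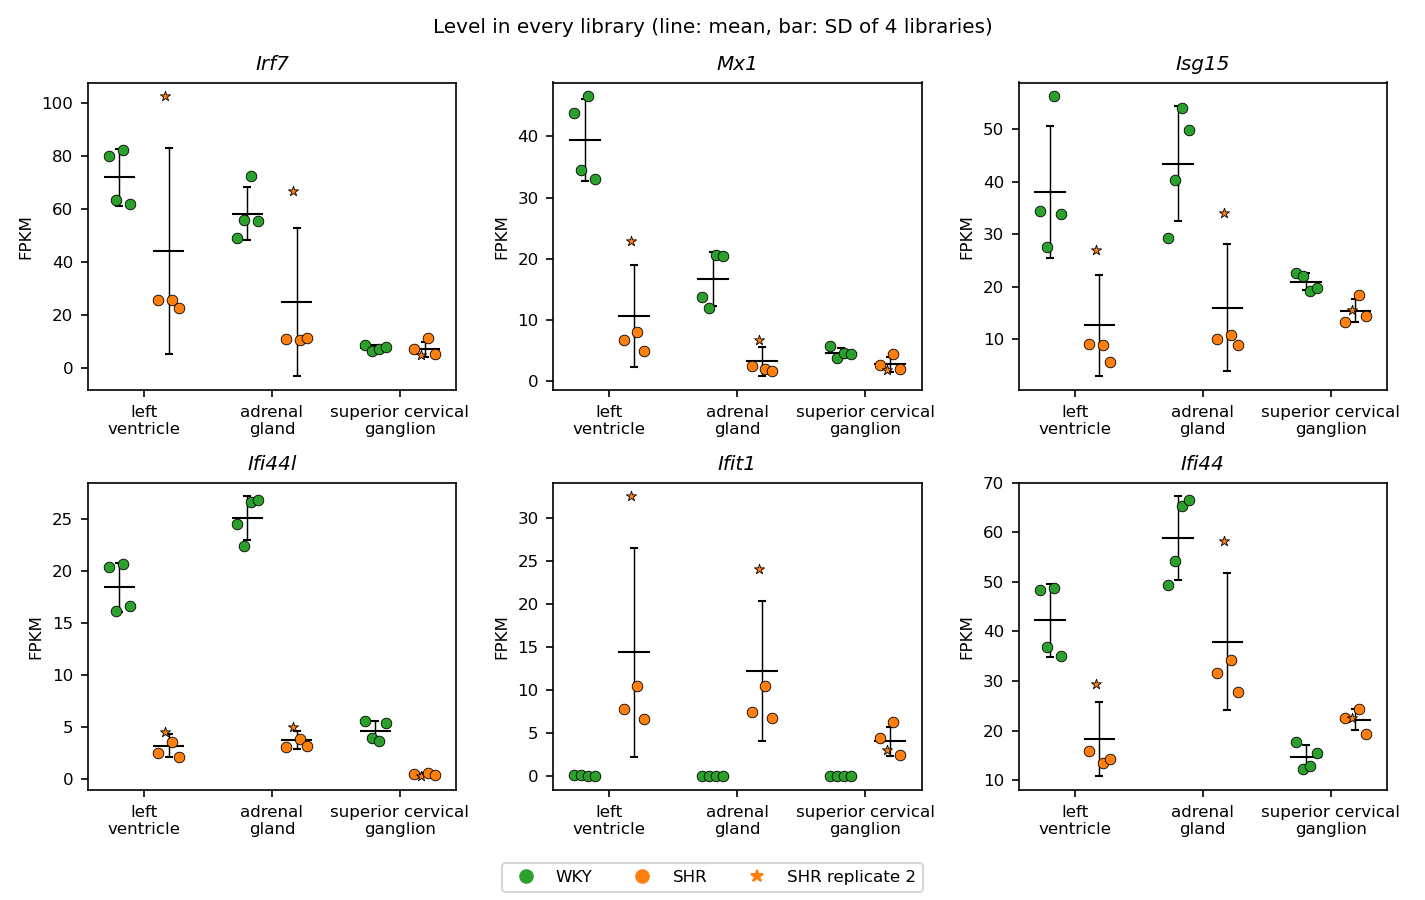
FPKM of Irf7, Mx1, Isg15, Ifi44l, Ifit1 and Ifi44 in every library of each tissue; each point is 1 library, the star is SHR replicate 2, and lines and bars are the mean and SD of 4 libraries. For Irf7, Mx1 and Isg15 the star sits apart from the other SHR points in the ventricle and the adrenal gland but not in the ganglion, and Ifit1 is near 0 in all WKY libraries.

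The IFIT genes encode proteins that bind foreign RNA and block its translation, and their 3 members did not move together. Ifit1 was listed at or near 0 in WKY in every tissue. Its FPKM in the ventricle was 0.08, 0.08, 0.04 and 0 in WKY and 7.81, 32.5, 10.4 and 6.67 in SHR. The adrenal values were 0.03, 0, 0.03 and 0.03 in WKY and 7.43, 24.1, 10.4 and 6.75 in SHR. In the ganglion all 4 WKY libraries were listed at 0 and SHR was at 4.41, 3.07, 6.26 and 2.48. The differences were 3.60 (SE 0.43), 3.52 (SE 0.33) and 2.28 (SE 0.20) on the log2(FPKM + 1) scale (limma adjusted p = 0.00135, 0.000102 and 8.38e-05). Without SHR replicate 2 and with the filter lowered to 3 libraries, a setting chosen after seeing the data, Ifit1 differed by 3.13 in the ventricle and 3.15 in the adrenal gland. Ifit1bl, a close relative also chosen after its values were seen, was at 2.49 to 3.78 FPKM in the WKY ventricle and 3.45 to 6.59 in SHR, and was not called (0.49, limma adjusted p = 0.0564). Reads of near copies can be assigned to the wrong gene, and a difference of the WKY sequence from the reference or annotation at Ifit1 was not tested. The WKY level and the size of the difference are therefore uncertain.

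Ifit2 and Ifit3, which lie next to each other in the GRCr8 gene order with 1 protein-coding gene between Ifit3 and Ifit1, went the other way. Ifit2 was at 50.3, 32.5, 41.2 and 38.2 FPKM in the WKY ventricle and 15.9, 30.1, 18.2 and 17.5 in SHR (-0.98, SE 0.20, limma adjusted p = 0.0097). It was lower by a similar amount in the adrenal gland (-0.99, SE 0.22) and also lower in the ganglion, at 11.8, 9.27, 9.48 and 13.6 against 8.92, 6.75, 8.10 and 6.41 (-0.49, SE 0.13, limma adjusted p = 0.0465). That ganglion call was lost in 6 of the 8 refits (limma adjusted p = 0.0522 to 0.118). Ifit3 was called in the adrenal gland (-1.0, SE 0.32, limma adjusted p = 0.0355) but not in the ventricle. Its ventricular values were 34.1, 18.4, 30.9 and 26.4 in WKY and 13.3, 30.6, 13.7 and 10.9 in SHR, where replicate 2 alone fell within the WKY range.

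The OAS genes encode enzymes that make oligoadenylates, which activate the ribonuclease RNase L, and the related OASL proteins. Oas1a was at 23.6, 24.4, 31.4 and 27.7 FPKM in the WKY adrenal gland and at 3.23, 21.4, 2.07 and 2.74 in SHR. SHR replicate 2 lay just below WKY and far above the other SHR libraries. The strains did not overlap (-2.27, SE 0.60, limma adjusted p = 0.0195), and in the ventricle the difference was -1.42 (SE 0.36, limma adjusted p = 0.0311). Without replicate 2 these were -2.92 (SE 0.13) and -1.81 (SE 0.09). Both calls of Oas1a were lost in some refits that kept SHR replicate 2. Oas2 was lower in both tissues, at 11.0, 10.7, 13.7 and 10.4 against 1.98, 7.47, 1.90 and 1.33 in the ventricle (-1.78, SE 0.38, limma adjusted p = 0.0151) and with a difference of -1.33 in the adrenal gland (SE 0.23, limma adjusted p = 0.00167). Without replicate 2 the differences of Oas2 were -2.19 and -1.58.

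Oasl fell in the ventricle (-1.33, SE 0.32) and was not called in the adrenal gland (-0.75, limma adjusted p = 0.103), where SHR replicate 2 was at 29.9 FPKM, above the WKY range of 21.2 to 25.8, and the others at 9.41 to 12.6. Its neighbour Oasl2 was called in neither tissue (-0.97 and -0.82, limma adjusted p = 0.0511 and 0.122), and in both without SHR replicate 2 (-1.29 and -1.20). Oas1g was listed at 0 in 3 of the 4 SHR ventricles and at 3.03 in replicate 2, against 6.16, 3.21, 8.35 and 7.95 FPKM in WKY. Oas1a and Oas1g belong to a cluster of near copies and their levels are uncertain. Oas3 stayed at or below 0.60 FPKM in every library and was not tested. In the ganglion Oas2 and Oasl were also too low to be tested, and Oas1a, Oas1g and Oasl2 overlapped between strains.

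The ISG15 system attaches a ubiquitin-like tag to proteins. Isg15, which encodes the tag, was lower in all 3 tissues. It was at 34.5, 27.5, 56.1 and 33.9 FPKM in the WKY ventricle and at 9.11, 27.0, 8.88 and 5.80 in SHR, so that replicate 2 came close to the lowest WKY library (-1.68, SE 0.45, limma adjusted p = 0.0378). This call was lost in 7 of the 8 refits, all but the one without SHR replicate 2, where the difference was -2.10 (SE 0.25). The adrenal difference was -1.56 (SE 0.41, limma adjusted p = 0.0194), and -1.98 without that library. In the ganglion the WKY values were 22.6, 22.1, 19.3 and 19.8 and the SHR values 13.4, 15.6, 18.4 and 14.4, a smaller difference without overlap (-0.42, SE 0.09, limma adjusted p = 0.0156) whose call was lost on leaving out SHR replicate 4 or WKY replicate 2 (limma adjusted p = 0.0502 and 0.0517). Usp18, which removes the tag and dampens the interferon receptor, was at 10.7, 13.3, 18.6 and 12.8 FPKM in the WKY adrenal gland and at 1.3, 11.4, 1.42 and 1.36 in SHR. Replicate 2 was within the WKY range and the other 3 lay close together far below it (-2.03, SE 0.55, limma adjusted p = 0.0205), and without it the difference was -2.63 (SE 0.16). The ventricular difference of Usp18 was -1.63 (SE 0.32), and -1.96 without replicate 2. Herc6, the ligase that conjugates ISG15 in rodents, was lower in the ventricle (-1.49, SE 0.30) and in the adrenal gland (-1.03, SE 0.21). Trim25, the ubiquitin ligase that activates RIG-I, was called in no tissue (-0.07, 0.10 and -0.01).

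Parp9, Dtx3l and Parp14 are neighbours in the genome that encode ADP-ribosyltransferases and the ubiquitin ligase partner of PARP9. All 3 were lower in the SHR ventricle (-1.0, -0.82 and -0.64), with Dtx3l at 22.8, 18.9, 19.3 and 18.9 FPKM in WKY and 10.2, 15.48, 10.04 and 8.64 in SHR. They parted in the adrenal gland. Parp9 was lower, at 75.7, 86.7, 77.0 and 88.2 against 56.7, 71.4, 41.2 and 48.5 (-0.61, SE 0.15, limma adjusted p = 0.0104). Parp14 was higher, at 22.5, 24.4, 24.5 and 25.7 against 33.0, 36.4, 25.8 and 29.1, with SHR replicate 3 just above WKY (0.34, SE 0.10, limma adjusted p = 0.021). The call of Parp14 was lost on leaving out SHR replicate 1 or WKY replicate 1 (limma adjusted p = 0.0600 and 0.0548). Dtx3l, between them, was at 44.2 to 59.2 in WKY and 52.7 to 79.9 in SHR and was not called (0.29, limma adjusted p = 0.12). None of the 3 was called in the ganglion.

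Among the GTPases, Mx1 and Mx2, which trap viral nucleocapsids, were both lower in the SHR ventricle. Mx1 was at 43.8, 34.4, 46.5 and 33.1 FPKM in the WKY ventricle and 6.74, 22.9, 8.10 and 4.94 in SHR (-2.0, SE 0.42, limma adjusted p = 0.0156). Its adrenal values were 13.8, 12.1, 20.6 and 20.4 FPKM against 2.42, 6.81, 2.07 and 1.70 (-2.16, SE 0.34, limma adjusted p = 0.00158). Replicate 2 was the highest SHR library in both, and still below WKY. Without it the differences of Mx1 were -2.42 and -2.50. Mx2 was at 124, 93.1, 129 and 90.5 in the WKY ventricle and 19.0, 70.1, 22.0 and 14.6 in SHR (-2.02, SE 0.47, limma adjusted p = 0.0237). Its adrenal values were 68.4, 73.0, 110 and 95.8 against 28.3, 109, 25.3 and 19.9, with replicate 2 near the top of WKY, and were not called (-1.24, limma adjusted p = 0.0873) unless that library was left out (-1.77, limma adjusted p = 0.00037). In the ganglion Mx1 was at 3.76 to 5.75 in WKY and 1.90 to 4.39 in SHR and was not called (-0.63, limma adjusted p = 0.0816).

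The GTPases of the IRG and GBP families, which are induced mainly by interferon gamma and act on intracellular parasites and bacteria, were lower in the ventricle. The differences of Igtp, Irgm, Ifi47, Gbp2 and Gbp5 there were -0.99, -0.95, -0.76, -0.75 and -0.84. Only Gbp5 was called in the adrenal gland (-0.77, SE 0.18, limma adjusted p = 0.00823). Adrenal Ifi47 was at 56.6, 40.1, 59.4 and 69.2 FPKM in WKY and 58.9, 88.4, 48.5 and 49.0 in SHR, overlapping with no common direction. Adrenal Gbp2 was at 27.5 to 38.0 in WKY and 25.1 to 32.8 in SHR.

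Among the remaining effectors, Ifi44l, a gene named for its induction by interferon, was lower in SHR in all 3 tissues. It was at 20.4, 16.2, 20.6 and 16.6 FPKM in the WKY ventricle and 2.49, 4.55, 3.52 and 2.12 in SHR (-2.25, SE 0.17, limma adjusted p = 4.37e-05). The adrenal values were 24.5, 22.4, 26.7 and 26.9 against 3.03, 4.98, 3.84 and 3.13 (-2.48, SE 0.13, limma adjusted p = 1.18e-06). In the ganglion they were 5.57, 3.96, 3.63 and 5.34 against 0.46, 0.26, 0.59 and 0.36 (-1.98, SE 0.13, limma adjusted p = 7.47e-06). The strains did not overlap in any tissue, and SHR replicate 2, although the highest of SHR in the ventricle and the adrenal gland, stayed far below the lowest WKY library. Its neighbour Ifi44 went in opposite directions by tissue. Ifi44 was at 48.4, 36.9, 48.7 and 35.0 against 15.9, 29.3, 13.6 and 14.3 in the ventricle (-1.22, SE 0.24, limma adjusted p = 0.00936) and lower in the adrenal gland (-0.67, SE 0.22, limma adjusted p = 0.0381). In the ganglion it was at 17.7, 12.3, 12.9 and 15.4 in WKY and 22.6, 22.6, 24.2 and 19.2 in SHR, higher without overlap (0.58, SE 0.11, limma adjusted p = 0.0105).

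Rsad2, which encodes viperin, an enzyme that makes a chain-terminating nucleotide, and its neighbour Cmpk2, which supplies the nucleotide precursor, fell together. Rsad2 was at 17.9, 15.2, 19.7 and 13.4 FPKM in the WKY ventricle and 3.74, 10.5, 7.63 and 4.56 in SHR (-1.28, SE 0.28, limma adjusted p = 0.0141), and its adrenal difference was -1.41 (SE 0.25). Cmpk2 differed by -0.90 in the ventricle and by -0.97 in the adrenal gland (SE 0.14, limma adjusted p = 0.000554). In the ganglion both overlapped between strains (-0.10 and 0.02). Rtp4, a regulator of the response, was lower in the ventricle and the adrenal gland (-1.35 and -1.54), with SHR replicate 2 at 36.5 FPKM in the adrenal gland against 8.64 to 11.6 in the others and 35.2 to 53.9 in WKY. Ifi35 was lower in the ventricle (-0.52, SE 0.12, limma adjusted p = 0.014) and not called elsewhere. Bst2, which encodes tetherin, a protein that holds budding virus at the cell surface, had the highest level of the set in the ventricle and the adrenal gland and was called in no tissue (-0.27, 0.07 and 0.01, limma adjusted p = 0.188, 0.515 and 0.983). Its adrenal level was 842 ± 75.6 FPKM in WKY and 880 ± 62.9 in SHR (SD, n = 4).

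Among the genes tested in all 3 tissues, 13 were lower in the ventricle and the adrenal gland and not called in the ganglion. Another 10 were lower in the ventricle and called nowhere else. Of these 10, Ddx58, Eif2ak2, Oas1g, Mx2, Igtp and Irgm were called lower in the adrenal gland once SHR replicate 2 was left out. The shares of all genes with such patterns were not computed. Ifi44l, Ifit2 and Isg15 were lower in all 3 tissues, and Ifit1 was higher in all 3. The 3 tissues were fitted separately with different libraries.

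The departure of SHR replicate 2 was measured for every library and number in the same way, by counting genes at least 1 log2 unit above the other 3 libraries of the group in both the ventricle and the adrenal gland. SHR replicate 2 had 17 such genes among all genes with values, of which 12 belong to the set: Ifit1, Ifit3, Irf7, Isg15, Mx1, Mx2, Oas1a, Oas1g, Oasl, Oasl2, Rtp4 and Usp18. The other 5 were Ifi27l2b, Slfn4, Oas1b and the class I histocompatibility genes RT1-T24-3 and RT1-S3, the last 3 of which have near copies. Ifi27l2b was at 55.9, 145, 49.99 and 45.1 FPKM in the SHR ventricle and at 280, 801, 256 and 229 in the SHR adrenal gland. Each of the other 7 combinations of strain and number had 0 to 3 such genes and none of the set. No gene met the rule for SHR replicate 2 in all 3 tissues. Whether the libraries numbered 2 of the ventricle and the adrenal gland came from the same rat is not stated in the labels.

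**Figure D4:**
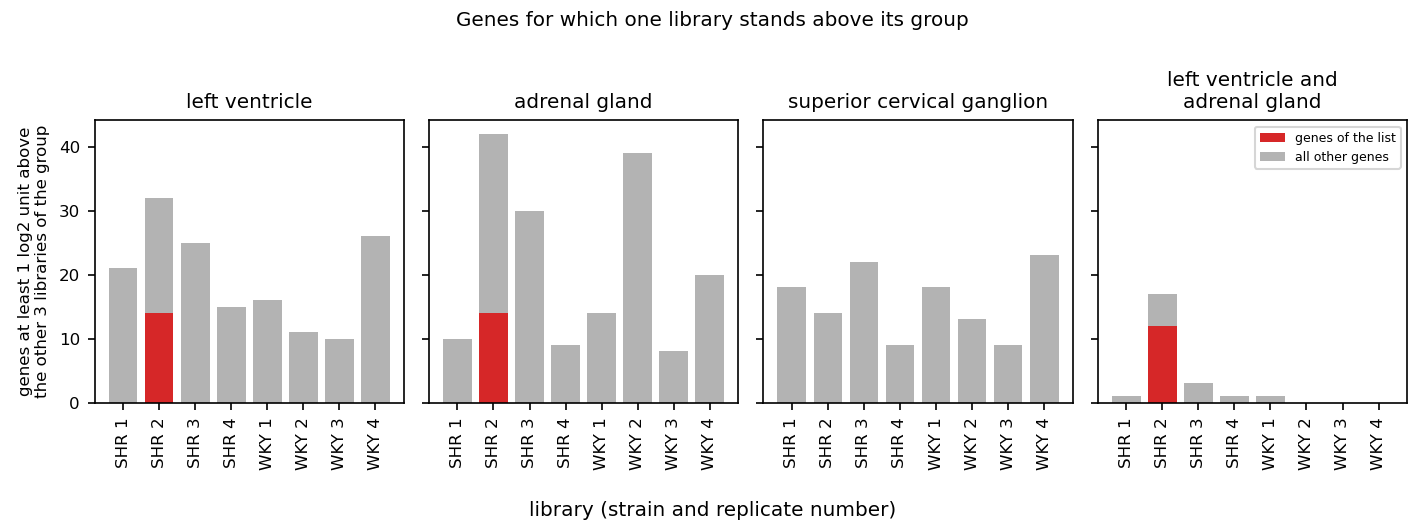
Number of genes at least 1 log2 unit above the other 3 libraries of the group, for each strain and replicate number, in each tissue and in the ventricle and adrenal gland together; the red part of a bar is genes of the interferon-stimulated set. The red part is 14 genes in the ventricle and 14 in the adrenal gland for SHR replicate 2, 12 in both together, and 0 for the other libraries.

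Against the WKY range, SHR replicate 2 lay below in 28 genes, within in 9 and above in 2 in the ventricle. For the adrenal gland these counts were 14, 14 and 11. The other SHR libraries lay below the WKY range in 36 or 37 of the 39 genes in the ventricle and in 31 or 32 in the adrenal gland. The share of all genes below that range in a single library was not computed. All SHR libraries together lay below it in 14.2% of all tested genes in the ventricle and 23.2% in the adrenal gland. As a mean of log2(FPKM + 1) over the 39 genes, the SHR ventricles were at 3.10, 4.08, 3.22 and 2.98 and the WKY ventricles at 4.12 to 4.44. The SHR adrenal glands were at 3.35, 4.30, 3.33 and 3.25 and those of WKY at 4.16 to 4.48. In the ganglion SHR was at 2.72, 2.67, 3.01 and 2.64 and WKY at 2.71 to 3.03, with SHR replicate 3 the highest SHR library in 33 genes and WKY replicate 1 the highest WKY library in 30. Ifit1, near 0 in WKY, lowers the WKY means. With Ifit1 left out, SHR replicate 2 was at 4.06 in the ventricle, against 4.22 to 4.56 in WKY. In the adrenal gland it was then at 4.29, against 4.27 to 4.60 in WKY. The median SD over the 39 genes of log2(FPKM + 1) was 0.20 in the WKY ventricle and 0.49 in the SHR ventricle, and 0.12 over all tested genes in either strain.

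Tissues were compared in their strain differences by interaction terms of 1 limma model of all 24 libraries, in which 38 of the genes were tested and each pair of contrasts shares libraries. The difference was higher, that is less negative or positive, in the adrenal gland than in the ventricle for 7 genes and lower for none, against 15.5% and 19% of all genes. Dtx3l (1.11, SE 0.19, limma adjusted p = 0.000122) and Parp14 (0.98, SE 0.19) kept this call in all 8 refits, while Ddx58, Ifih1, Ifi47, Gbp2 and Ifi35 lost it in at least 1. It was higher in the ganglion than in the ventricle for 14 genes and lower for none, against 8.59% and 5.84% of all genes, led by Ifi44 (1.80, SE 0.30, limma adjusted p = 0.000369). It was lower in the adrenal gland than in the ganglion for 9 genes and higher for none, against 19.1% and 10.7%, with Irf9 at -1.56 (SE 0.40) and Cmpk2 at -0.99 (SE 0.23). Ifi44 differed in both contrasts with the ganglion. The share of all genes called in these contrasts without SHR replicate 2 was not computed. Without that library the counts of the set were 18, 31 and 30, in either direction. The first fell to 2 or 3 when SHR replicate 1 or WKY replicate 1 or 2 was left out, the second to between 7 and 9 when SHR replicate 1, 3 or 4 or WKY replicate 1, 2 or 3 was left out, and the third to 5 when SHR replicate 1 or WKY replicate 2, 3 or 4 was.

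In WKY alone, the set ran at a lower level in the ganglion than in the other tissues. Of 38 genes, 31 were higher in the ventricle than in the ganglion and none lower, where 39.3% of all genes were higher and 44.5% lower, and the median difference was 1.32. The adrenal gland was higher than the ganglion for 30 genes, where 47.7% of all genes were higher and 36.8% lower, with a median of 1.45. It was lower for Cmpk2 (-0.86, SE 0.16) and for Ifit2 (-0.48, SE 0.21). Bst2 had the widest range, at 842 ± 75.6 FPKM in the adrenal gland, 220 ± 17.3 in the ventricle and 24.0 ± 5.55 in the ganglion (SD, n = 4). Between ventricle and adrenal gland the set split, with 9 genes higher in the ventricle and 13 lower, against 30.1% and 51.6% of all genes. Ifit2 (2.27), Ifit3 (1.76), Rsad2 (1.71) and Oas2 (1.70) stood higher in the ventricle. Bst2 (-1.93), Oasl (-1.61), Parp9 (-1.40) and Ifi47 (-1.30) stood higher in the adrenal gland.

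**Figure D5:**
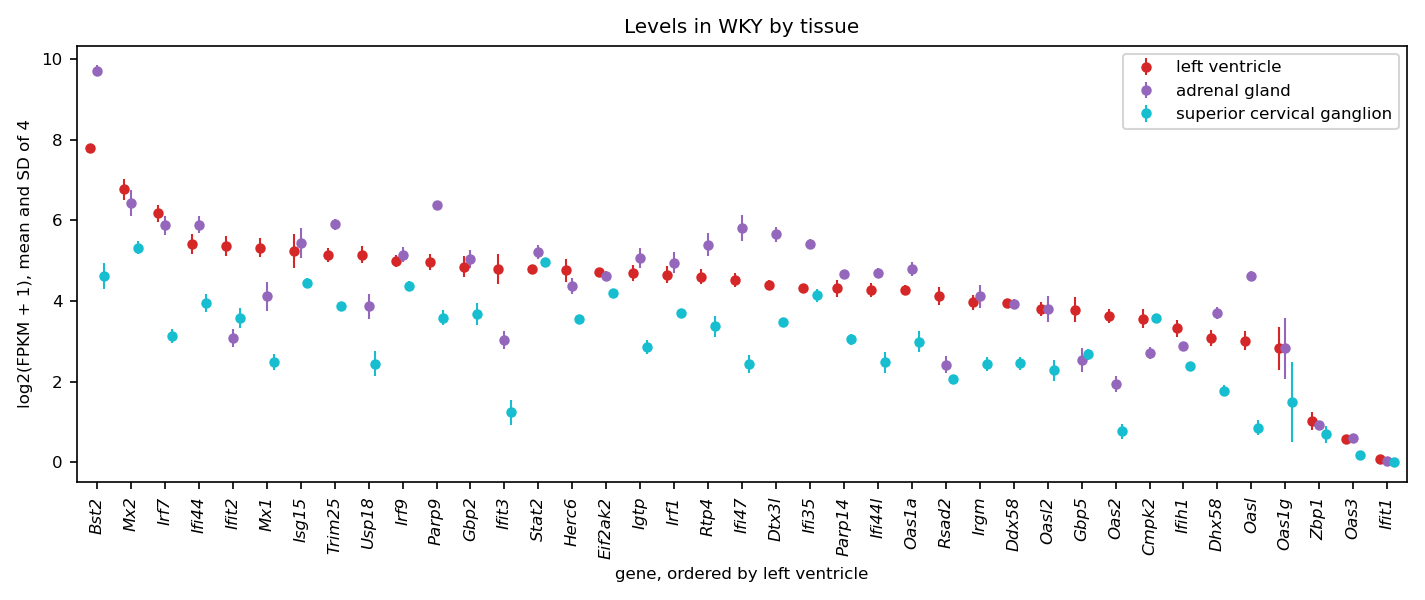
Level of each of the 39 genes in WKY, as log2(FPKM + 1), in the ventricle, the adrenal gland and the ganglion; points and bars are the mean and SD of 4 libraries. Most genes lie lowest in the ganglion, and Bst2 is highest in the adrenal gland.

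The interferon genes themselves were too low to be tested. Of 11 listed, 10 had values and none passed the filter. Their summed FPKM did not exceed 0.91 in any ventricular library, 0.62 in any adrenal library or 0.25 in any ganglion library. Of 20 interferon receptor and signalling genes, the ventricle had 6 higher and 1 lower, where 9.2% and 12% of all genes were, and 5 higher and 1 lower without SHR replicate 2. Ifnar1, a subunit of the type I receptor, was higher in the ventricle (0.68, SE 0.08) and lower in the ganglion (-0.32, SE 0.03). The kinase gene Jak2 was higher in the SHR adrenal gland (1.44, SE 0.32), among 5 higher and 2 lower of 19, against 16.5% and 24.7% of all genes (5 and 1 without SHR replicate 2). Of 23 genes of nucleic acid sensing and relay tested in the ventricle, 4 were lower and 2 higher with and without SHR replicate 2, against 12% and 9.2% of all genes. The lower ones included Mavs, the adaptor of both helicases, at 45.1 ± 5.14 FPKM in WKY and 27.6 ± 3.06 in SHR (SD, n = 4; -0.69, SE 0.10, limma adjusted p = 0.00112), and Adar, an RNA editing enzyme (-0.88, SE 0.12). In the adrenal gland 5 of 21 were lower and 4 higher, against 24.7% and 16.5% of all genes (6 and 3 without SHR replicate 2). The ganglion had 1 lower and 1 higher of 21, against 4.43% and 6.37%.

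Further interferon-inducible genes that are not in the set followed it in part. Of 57 tested in the ventricle, 27 were lower and 1 higher, where 12% and 9.2% of all genes were, and without SHR replicate 2 there were 36 and 2. Of 55 in the adrenal gland 28 were lower and 6 higher, against 24.7% and 16.5%, and 32 and 4 without that library. The ganglion had 7 lower and 5 higher of 46, against 4.43% and 6.37%. Ddx60, a helicase gene of the same response, was at 6.27 ± 0.91 FPKM in the WKY ventricle and 1.52 ± 0.60 in SHR (SD, n = 4; -1.55, SE 0.15, limma adjusted p = 0.00014). Lgals3bp, which encodes a secreted glycoprotein, was lower in the ventricle (-0.89) and the adrenal gland (-1.59) and higher in the ganglion (0.21, SE 0.03, limma adjusted p = 0.00345).

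Markers of many other cells differed between strains in the adrenal gland, where 24.7% of all genes were lower and 16.5% higher. Of 15 leukocyte markers tested there, 12 were lower in SHR and 1 higher, with a mean log2(FPKM + 1) of 2.92 to 3.32 in SHR and 3.53 to 3.94 in WKY. Lower in SHR were also 11 of 12 endothelial, 4 of 4 erythroid, 4 of 5 chromaffin cell, 5 of 6 sympathetic neuron and 4 of 5 cardiomyocyte markers, with none higher, whereas 2 of 5 adrenal cortex markers were higher and none lower. The chromaffin and neuron lists share Th and Dbh, and the cardiomyocyte markers summed to only 3.42 to 13.5 FPKM there. Of 3 Schwann and satellite glia markers tested, 1 was higher and none lower. Plasmacytoid dendritic cell markers had 1 of 3 lower, and the 1 T, NK and B cell marker tested was not called. The summed FPKM of the erythroid markers was 82.6 to 268 in SHR and 591 to 701 in WKY, and that of the chromaffin markers 954 to 1684 and 1982 to 2282. In the ventricle 5 of 16 leukocyte markers were higher in SHR and none lower, against 9.2% of all genes higher, with overlapping means of 3.77 to 4.32 and 3.40 to 3.92 in WKY, and 4 were higher without SHR replicate 2. SHR replicate 2 had a leukocyte mean of 4.32 in the ventricle, where the rest of the strain was at 3.77 to 4.27, and of 2.99 in the adrenal gland, within the range of the others. None of the leukocyte markers was at 0 in all libraries. Their part in the results above was not tested.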

How the data were processed

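RNA was extracted with Trizol, libraries were made from total RNA with a KAPA HyperPrep kit and read on a BGISEQ-500, per the labels' protocols. The build is Rnor_6.0, and Bowtie2, DESeq2 1.4.5 and RSEM 1.3.1 are listed as tools with no role, per the submitters' processing notes. The sources used here give no annotation, strand setting or filter. The deposited values are FPKM with 2 decimals, 1 column per library, per the file headers. The same deposited table gives log2 ratios of SHR over WKY and q-values computed by the authors, quoted only as counts and gene names. Of 22864 genes, 2358 were blank throughout, and 27 symbols turned into dates were restored by gene identifier.

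Samples were grouped by title. The tool was limma 3.58.1 (R 4.3.3) on log2(FPKM + 1), with a pseudocount of 1 (trend, robust empirical Bayes), 2-sided, with Benjamini-Hochberg adjustment over all genes that passed the filter. The fit was tested on simulated data. FPKM keeps no read count, so no counting interval is given and precision rests on 4 libraries per group. Every gene of the set may be named; other genes were named where they passed in all 3 tissues, ranked among the 3 smallest adjusted p of a list in a tissue, or stood apart in a library, and others are marked as chosen after their values were seen. The genes and lists were chosen with earlier results of these data known. Alternatives were other pseudocounts, filters, scalings, moderation, a joint fit, a replicate block and each library left out. Promoters and gene order came from RefSeq, assembly GRCr8. The values of 1 gene counted in a list are not reported here.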

Additional observations from a re-analysis of the deposited data

Results flagged for a closer look

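Among 218 groups of 4 libraries that reached an FPKM of 1, 38 had 1 library far from the other 3, with a gap to its nearest neighbour past the critical value of Dixon's test. For independent, normally distributed values this happens in about 1 group in 20. The groups here are not independent, since the genes share libraries, and the set was chosen with earlier results of these data known. That rate is therefore no yardstick for the count, and the share over all genes was not computed. Of the 38, SHR replicate 2 in the ventricle or the adrenal gland made up 30, each time on the high side.

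The FPKM values of SHR replicate 2 in question were, for the ventricle, those of Irf7 (102), Irf9 (27.3), Stat2 (21.5), Ifit1 (32.5), Ifit2 (30.1), Ifit3 (30.6), Oas1a (15.4), Oas1g (3.03), Oas2 (7.47), Oasl2 (12.9), Isg15 (27.0), Usp18 (21.9), Parp14 (16.5), Mx2 (70.1), Ifi44 (29.3) and Rtp4 (19.1). For the adrenal gland they were those of Dhx58 (11.1), Eif2ak2 (28.6), Irf7 (66.7), Irf9 (27.9), Ifit3 (7.53), Oas1a (21.4), Oasl (29.9), Isg15 (34.0), Usp18 (11.4), Herc6 (15.2), Mx1 (6.81), Mx2 (109), Irgm (22.4) and Rtp4 (36.5). The remaining 8 were spread over other libraries. WKY replicate 1 was high in the ventricle for Dtx3l (22.8) and Ifi47 (26.3) and in the ganglion for Parp14 (8.54). SHR replicate 3 was high in the adrenal gland for Irf1 (27.6) and in the ganglion for Dhx58 (2.78) and Rtp4 (9.28). Low values were those of Dtx3l in the ganglion of SHR replicate 1 (8.95) and of Oas1g in the ganglion of WKY replicate 2 (listed at 0).

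The strain difference differed between tissues by the interaction test of limma for 30 combinations of gene and tissue pair, which share libraries. Many genes outside the set did so too. Of all genes, 15.5% were higher and 19% lower for adrenal gland minus ventricle. The shares were 8.59% and 5.84% for ganglion minus ventricle, and 10.7% and 19.1% for adrenal gland minus ganglion. Adrenal gland minus ventricle, on the log2 scale, these were Ddx58 (0.77), Ifih1 (0.51), Dtx3l (1.11), Parp14 (0.98), Ifi47 (0.86), Gbp2 (0.60) and Ifi35 (0.44). Ganglion minus ventricle, they were Ddx58 (1.01), Ifih1 (0.84), Eif2ak2 (0.73), Stat2 (0.91), Oas2 (1.46), Herc6 (1.26), Dtx3l (0.84), Parp9 (0.84), Igtp (0.94), Irgm (0.94), Rsad2 (1.18), Cmpk2 (0.92), Ifi35 (0.70) and Ifi44 (1.80). Adrenal gland minus ganglion, they were Dhx58 (-1.16), Irf1 (-0.69), Irf9 (-1.56), Stat2 (-0.61), Oas1a (-1.86), Mx1 (-1.54), Rsad2 (-1.32), Cmpk2 (-0.99) and Ifi44 (-1.25).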

How the results depend on the processing

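Of 337 gene differences, 36 changed sign under at least 1 alternative, among them adrenal Ifih1 and Ifi47 without SHR replicate 2, but 0 of these passed the test in either setting, and their size as reported was at most 0.50. Across pseudocounts, filters, scalings, moderation, the joint fit and the replicate block, the ventricle had 23 to 34 lower genes and 1 higher, and the adrenal gland 15 to 27 lower and 2 or 3 higher. In the ganglion, 1 gene was higher with the filter at a mean FPKM of 5, and 1 was lower and 1 higher in the joint fit of 24 libraries. The count of genes for which SHR replicate 2 stood apart in both tissues was 24 with a gap of 0.5 in place of 1 and 13 with a pseudocount of 0.1. With 1 library left out, the ventricle had 18 to 33 lower and 0 or 1 higher, the adrenal gland 10 to 27 lower and 0 to 2 higher, and the ganglion 1 to 6 lower and 2 or 3 higher. The interaction counts then ranged from 2 to 18 (adrenal gland minus ventricle), 7 to 31 (ganglion minus ventricle) and 5 to 30 (adrenal gland minus ganglion), and the WKY tissue counts from 16 to 25 (ventricle minus adrenal gland), 29 to 35 (ventricle minus ganglion) and 28 to 34 (adrenal gland minus ganglion). The cause of these shifts was not tested. That Ifit1 and Ifi44l drop out through the filter follows from its rule, and only Ifit1 was refitted with the filter lowered. Scaling moved the median of all genes by less than 0.1.

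The labels give SHR and WKY the same replicate numbers. With the replicate block the ventricle had 23 lower and 1 higher, the adrenal gland 15 and 3, and the ganglion 2 and 3. With strain and number as a block shared by the tissues, the interaction counts were 7, 14 and 9 and the WKY tissue counts 22, 31 and 32. Same-numbered SHR and WKY libraries correlated in their deviations from the group means at -0.10 to 0.19, over 0.1 in 6 of 12 pairs. Of 12 SHR libraries, 6 correlated best with their own number among the 4 WKY libraries of the tissue. These values do not settle whether the numbers link samples. The labels do not say that they do, and the reported fits did not pair them.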
